A study of Mus musculus with 8 samples.

Results

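The transcripts of 10 genes that mark ovarian cells other than granulosa cells were followed in cultures grown from mouse follicles. The genes were chosen by name, with earlier results of these data known. They were matched through their Entrez identifiers to the rows of the array, and all 10 were found among 24235 genes. Krt7, Krt19 and Upk3b mark surface epithelium and mesothelium, Acta2 and Myh11 smooth muscle, Pecam1 and Cd34 endothelium, Ptprc immune cells, Ddx4 germ cells and Zp3 the growing oocyte. Each was set beside a longer list of markers of the same cell type, which gave 98 genes in all, of which 96 were on the array. Sohlh1, a germ cell factor, and Insl3, a theca hormone, were not matched by symbol.

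The cells came from preantral follicles of 8-week-old Swiss females, each replicate being a pool of 5 animals, and were grown as monolayers to day 9. Intact follicles were picked by hand, so the starting material held the oocyte and its granulosa cells, and the labels describe the culture as mostly granulosa cells. All wells were transfected with 12 pmol of siRNA and a pDsRed plasmid, in medium free of androstenedione with charcoal-treated serum. The siRNA was a non-targeting pool (control siRNA) or a pool against Foxl2 (FOXL2 siRNA), and the cells received vehicle or 100 nM 17β-estradiol (E2) in the last 10 h before lysis, as the labels give it. This gave 4 groups of 2 arrays, named control siRNA vehicle, control siRNA E2, FOXL2 siRNA vehicle and FOXL2 siRNA E2. The question asked here is how much transcript of other cell types the cultures held, and whether it differed with the siRNA or with E2.

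A follicle is built from an oocyte and surrounding granulosa cells, with theca cells, vessels and stroma outside its basement membrane. The ovary itself is covered by a single layer of surface epithelium, a modified mesothelium that carries keratins and mesothelial surface proteins. Smooth muscle actin and its partners mark contractile cells, but cultured cells of many kinds can also express them once they spread on plastic. An array reads the pooled RNA of a well, so fewer cells of a type and less RNA per cell cannot be told apart in any value below.

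Signals are in array units, with arrays brought to a common 75th percentile. A probe was called well above background by the scanner software, which compares each spot with the local background. The dimmest probe so called lay between 9.84 and 14.8 units, depending on the array, and 51.4 to 55.6% of probes were called so. No probe was saturated. Brightness depends on the probe, so levels were compared between arrays for a given gene. Where the signals of a list are summed, genes with bright probes weigh most, and the sum is no measure of relative transcript amounts. Between the 2 replicates of a group, log2 signals correlated at 0.989 to 0.992 over 15638 genes, and no value was identical.

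Among the 10 markers, Upk3b, Acta2, Pecam1 and Cd34 were well above background on all 8 arrays. Krt19 and Ddx4 were so on 7 arrays and Krt7 on 5. Myh11, Ptprc and Zp3 were so on none. Over all genes on the array, 58.5% were well above background on all 8 arrays and 28.7% on none. Cd34 was read by 2 probes, of which A_51_P204740 was well above background on all 8 arrays and A_55_P2009225 on none. The other 9 genes had 1 probe each.

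Myh11, the smooth muscle myosin heavy chain, lay between 2.38 and 9.86 units over the 8 arrays. Ptprc, the common leukocyte antigen CD45, lay between 2.50 and 5.67 units on 7 arrays and at 12.8 units on FOXL2 siRNA vehicle replicate 2, still not well above background. Zp3, a protein of the zona pellucida, lay between 3.22 and 8.14 units. These 3 genes have only an upper bound in every group, so no fold is given for them.

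**Figure D1:**
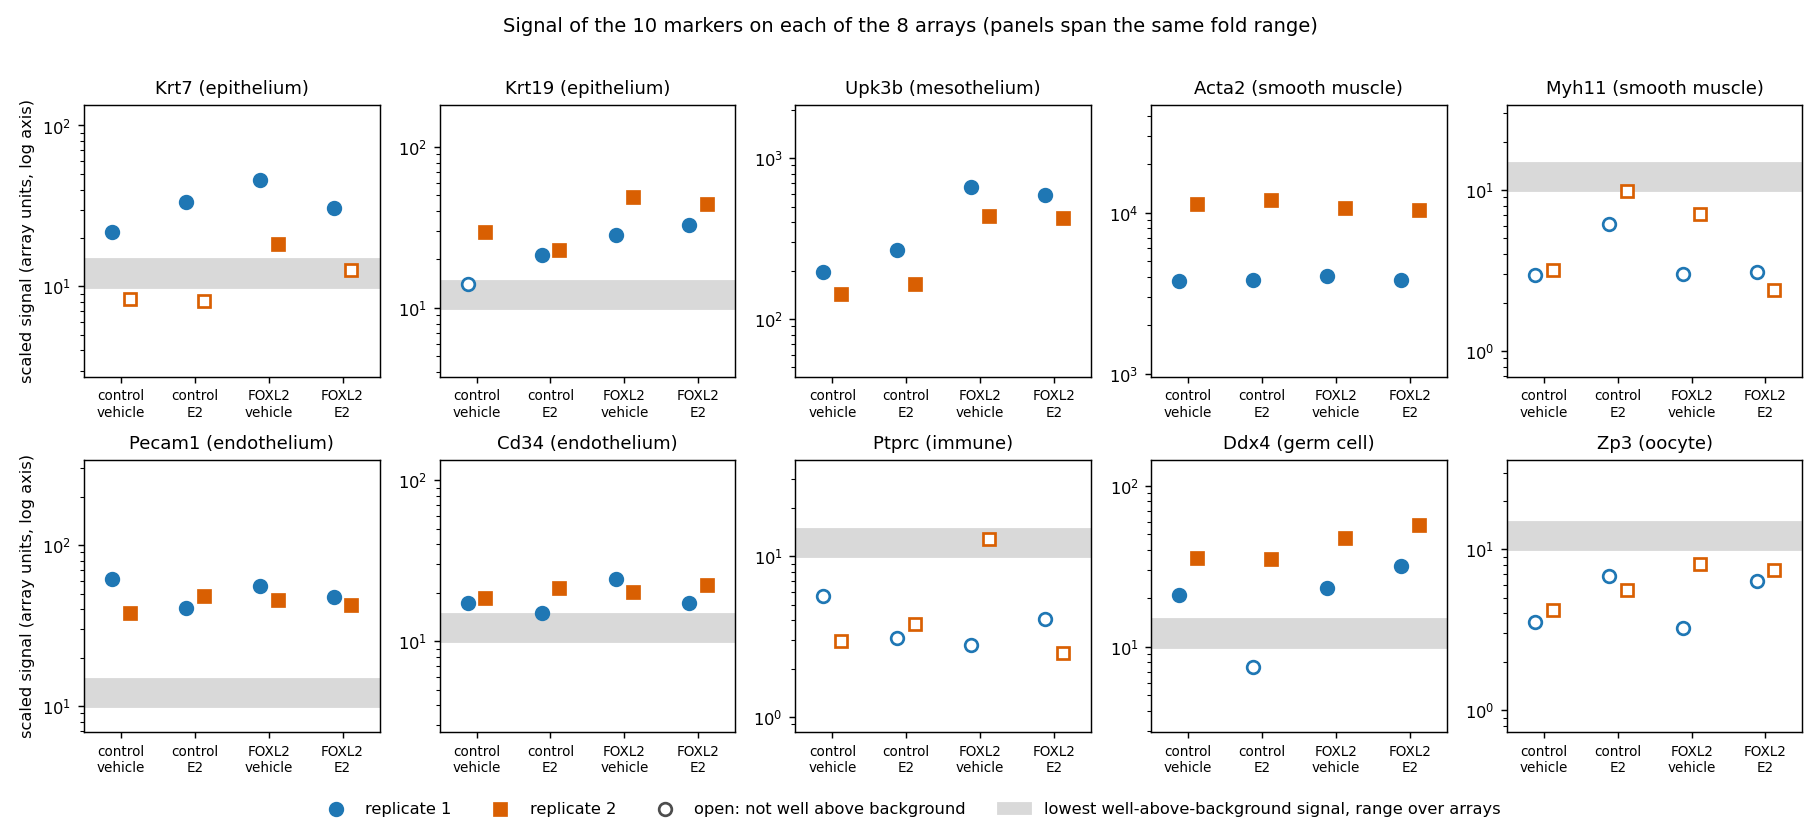
Scaled signal (log axis, array units) of the 10 markers on each array, by group. Circles are replicate 1 and squares replicate 2, open symbols were not well above background, and the grey band spans the dimmest well-above-background signal of the 8 arrays (9.84 to 14.8 units). Upk3b separates by siRNA, Acta2, Ddx4 and Krt7 separate by replicate number, and Myh11, Ptprc and Zp3 lie at or under the band.

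The longer lists gave each cell type a wider reading, to be set beside the 58.5% of all genes well above background on all 8 arrays. The shares were 53.8% for surface epithelium and mesothelium, 50% for smooth muscle, 33.3% for pericyte, 38.5% for endothelium and 44.4% for immune genes. These lie under the share of all genes, so the counts alone do not show that a cell type was present. In the surface epithelium and mesothelium list, 7 of 13 genes were well above background on all 8 arrays, among them the keratins Krt8 and Krt18, mesothelin (Msln) and the mucin Muc16. Cdh1, the E-cadherin of epithelia, and Lgr5 were so on none, and Epcam was so on 2. The members of this list are therefore described below as genes and not as a reading of epithelial cells. In the smooth muscle list, 5 of 10 genes passed on all arrays, including the actin-binding proteins Tagln and Cnn1. Besides Myh11, Synpo2 was on none, and Myocd, the muscle coactivator, was on 1. Of 6 pericyte genes, Notch3 and Mcam were well above background on all arrays and Rgs5, Kcnj8 and Abcc9 on none.

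The endothelial list was read on all 8 arrays for 5 of 13 genes, Pecam1, Cd34, Kdr, Egfl7 and Esam. Of its other genes, Cdh5, Tek, Flt1, Emcn, Vwf, Erg and Cldn5 were well above background on no array, and Tie1 on 1. Pecam1 and Cd34 are therefore described below as genes and not as a reading of endothelial cells. In the immune list, 8 of 18 genes passed on all arrays. These were the macrophage lysosomal protein Cd68, the receptor Csf1r, Itgam, Cd14, Aif1, Cd3e, Cd4 and Cd79a. Ptprc, Lyz2, Tyrobp, Cd8a and Itgax were among those that passed on none, so Cd68 and Csf1r are likewise described below as genes.

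In the oocyte list, 1 of 14 genes was well above background on all arrays and 10 were on none. Gdf9, an oocyte growth factor, was the gene detected on all arrays, at 82.4 to 110.3 units. Ddx4 was well above background on 7 arrays, Sycp3 on 4 and Ooep on 3. The zona genes Zp1, Zp2 and Zp3 and the oocyte factors Bmp15, Figla, Nobox and Nlrp5 were on none. In the theca and stroma list, Cyp17a1, Ogn, Dcn and Nr2f2 were on all 8 arrays and Lhcgr, Aspn, Pdgfra and Tcf21 on none.

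Of the granulosa list, 11 of 14 genes were well above background on all arrays, among them Foxl2, Inha and Amhr2. The follicle-stimulating hormone receptor Fshr and anti-Müllerian hormone (Amh), which define granulosa cells in growing follicles, were on none, at medians of 3.02 and 3.34 units. Of the 2 probes of the targeted gene, only the dim one was called. The Foxl2 signal was 6944 to 11237 units on the 4 arrays labelled control siRNA and 7957 to 10853 on the 4 labelled FOXL2 siRNA. Its bright probe differed by 0.18 on the log2 scale (limma adjusted p = 0.364), while its dim probe was lower by 0.97 with FOXL2 siRNA (log2 change −0.97, limma adjusted p = 0.0199). Fst, encoding follistatin, which FOXL2 is known to activate, read lower on every array labelled FOXL2 siRNA than on any labelled control siRNA (log2 change −2.02). Leaving out 1 array at a time, its change lay between −2.18 and −1.85. Fst was named because it was called in this comparison, so it is no separate check of the knockdown. Directions below refer to the arrays as labelled.

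**Figure D2:**
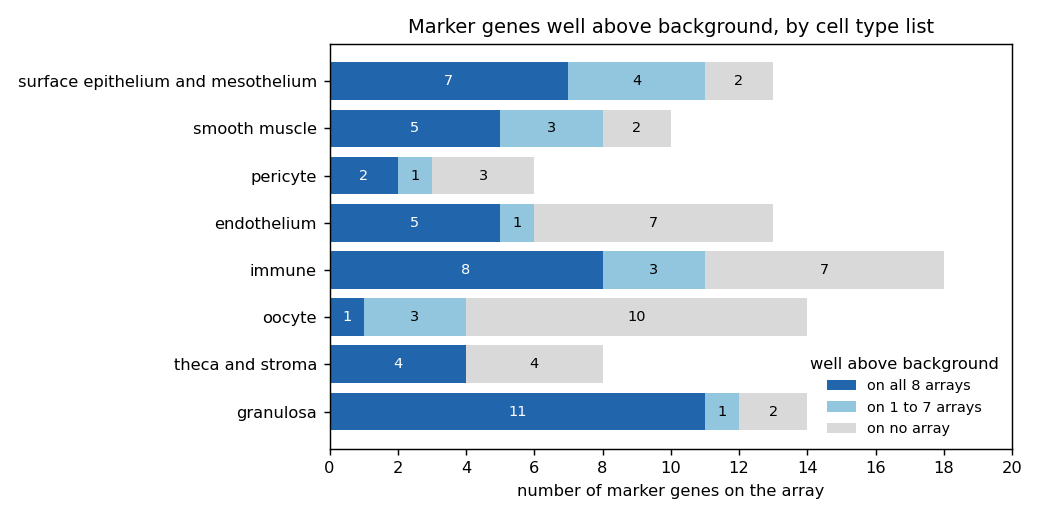
Number of marker genes of each list (horizontal axis) that were well above background on all 8 arrays, on 1 to 7 arrays or on none. Granulosa genes were detected on all arrays in 11 of 14 cases and oocyte genes in 1 of 14, against 58.5% of all genes on the array.

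Promoters are shown for 3 genes, Upk3b and Muc16 because they differed between siRNAs together and Acta2 because it differed most between replicate numbers. Each runs 5′ to 3′ from 250 bases before to 50 after the transcription start (RefSeq, build GRCm38.p6). Capitals mark forkhead letters, the site type read by FOXL2 and its relatives, searched on both strands as the letters ATAAACA, then the letters ATAAATA, then the letters GTAAACA and lastly the letters GTAAATA. Capitals also mark CArG boxes, the site type read by serum response factor in muscle genes, with at most 1 C or G allowed among the 6 middle bases.
Upk3b (chr5:136038246-136038545, plus strand): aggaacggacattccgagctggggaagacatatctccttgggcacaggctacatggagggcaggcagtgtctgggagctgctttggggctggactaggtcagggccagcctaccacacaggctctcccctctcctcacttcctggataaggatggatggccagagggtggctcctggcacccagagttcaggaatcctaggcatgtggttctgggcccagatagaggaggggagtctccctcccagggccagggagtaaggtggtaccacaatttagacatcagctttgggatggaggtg
Muc16 (chr9:18674554-18674853, minus strand): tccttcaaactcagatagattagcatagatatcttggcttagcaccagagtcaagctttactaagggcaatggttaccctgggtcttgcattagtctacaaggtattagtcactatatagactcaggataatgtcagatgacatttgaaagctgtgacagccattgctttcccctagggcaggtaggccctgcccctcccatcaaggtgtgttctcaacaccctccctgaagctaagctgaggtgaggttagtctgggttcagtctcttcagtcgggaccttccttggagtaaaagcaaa
Acta2 (chr19:34255324-34255623, minus strand): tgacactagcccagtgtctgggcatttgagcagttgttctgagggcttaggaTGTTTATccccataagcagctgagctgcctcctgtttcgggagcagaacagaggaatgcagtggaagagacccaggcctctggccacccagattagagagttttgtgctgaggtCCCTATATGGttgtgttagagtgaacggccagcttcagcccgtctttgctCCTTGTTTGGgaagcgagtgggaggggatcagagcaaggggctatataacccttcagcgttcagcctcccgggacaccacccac

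The Acta2 promoter held 1 forkhead match, beginning 198 bases before the start (−198), and 2 CArG boxes, beginning at −84 and −34. Neither kind of match was in the Upk3b or Muc16 window. Of the 10 markers, 7 had a promoter in the table, 8 promoters in all, since Ptprc had 2. Forkhead letters were in 3 of these 8 (Acta2, Zp3 and 1 of Ptprc), against 15.0% of all 32851 promoters, and a CArG box was in 2 (Acta2 and 1 of Ptprc), against 9.98% of all. The 6 promoters found for Muc16, Krt8, Krt18, Smtn, Cnn1 and Notch3 held neither.

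Upk3b, a uroplakin of the mesothelial surface, was the 1 tested marker called between siRNAs without a block. On the control siRNA vehicle arrays its signal was 195.9 and 142.5 units (replicates 1 and 2), and on the control siRNA E2 arrays 268.3 and 165.8. On the FOXL2 siRNA vehicle arrays it was 659.2 and 436.7, and on the FOXL2 siRNA E2 arrays 591.4 and 425.0. The lowest array labelled FOXL2 siRNA was thus above the highest labelled control siRNA. Upk3b rose 3.21-fold with FOXL2 siRNA in vehicle (log2 change 1.68 ± 0.30 SE, 2 arrays a group, limma adjusted p = 0.0187), where 6.57% of all genes tested were called. In E2 it was 2.38-fold higher (log2 change 1.25 ± 0.30 SE, limma adjusted p = 0.0681), which did not pass the threshold of 0.05, and 4.39% of genes were called. Over vehicle and E2 together, Upk3b was 2.76-fold higher (log2 change 1.47 ± 0.22 SE, limma adjusted p = 0.00445), a comparison that called 12.6% of genes.

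Within each replicate number the same change was seen. In replicate 1, Upk3b was 3.37-fold higher with FOXL2 siRNA in vehicle and 2.20-fold higher in E2, and in replicate 2 it was 3.06-fold and 2.56-fold higher. With the replicate number as a block in the fit, the standard error fell to 0.11 and both changes passed (limma adjusted p = 1.07e-06 in vehicle and 1.17e-05 in E2). The blocked fit called more of all genes, 18.7% in vehicle, 14.9% in E2 and 27.7% over both treatments. Without FOXL2 siRNA vehicle replicate 1 or control siRNA vehicle replicate 2 the unblocked vehicle call was lost (limma adjusted p = 0.101 and 0.106), while the call over both treatments stood without any 1 array (highest limma adjusted p = 0.0174).

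Of the other markers none passed the unblocked test with either siRNA comparison. Krt19, a keratin of simple epithelia, read 14.1 and 29.6 units with control siRNA in vehicle and 21.3 and 22.8 in E2. With FOXL2 siRNA it read 28.3 and 48.6 in vehicle and 32.7 and 44.5 in E2, so that the groups overlapped by 1 control array. Averaged over vehicle and E2, Krt19 differed by 0.83 ± 0.30 SE on the log2 scale, with a limma adjusted p = 0.118 without and 0.0104 with the replicate block. The value of 14.1 units, on control siRNA vehicle replicate 1, was not well above background, so the size of this change is uncertain. Leaving out 1 array at a time gave changes from 0.56 to 1.09.

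Krt7, a keratin of ducts and mesothelia, was near background. It read 21.8 and 8.39 units with control siRNA in vehicle and 33.7 and 8.09 in E2, against 45.8 and 18.5 with FOXL2 siRNA in vehicle and 30.7 and 12.7 in E2. The replicate 2 arrays were not well above background in 3 of the 4 groups, and the siRNA groups overlapped. In vehicle the log2 change was 1.10 ± 0.83 SE (limma adjusted p = 0.543), or 1.10 ± 0.34 SE with the block (limma adjusted p = 0.0394), and over both treatments 0.68 (limma adjusted p = 0.517 without and 0.0515 with the block).

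Ddx4, the germ cell helicase Vasa, read 21.1 and 35.5 units with control siRNA in vehicle and 7.48 and 35.1 in E2. With FOXL2 siRNA it read 23.2 and 47.7 in vehicle and 32.0 and 57.0 in E2. The low value, on control siRNA E2 replicate 1, was the 1 array on which it was not well above background. In E2 the log2 change with FOXL2 siRNA was 1.40 ± 0.72 SE (limma adjusted p = 0.397), and 1.40 ± 0.35 SE with the block (limma adjusted p = 0.0183). Within replicate 1 Ddx4 was at least 2.59-fold higher in E2, against the dimmest well-above-background signal of that array, and within replicate 2 it was 1.62-fold higher. The size of the fitted change therefore rested largely on an array with only an upper bound.

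Acta2, the smooth muscle actin, did not pass in any siRNA comparison. Its log2 change over both treatments was −0.04, with a 95% interval from −1.32 to 1.24, or from −0.17 to 0.10 with the block. The same change was 0.04 for Pecam1, an adhesion protein of vessel walls (95% interval −0.41 to 0.49), and 0.22 for Cd34 (−0.29 to 0.73). Over the 7 markers that passed the filter on low signals, the median log2 change was 0.30 in vehicle and 0.26 in E2. Over all genes tested it was −0.01 and 0.00. Over both treatments the marker median was 0.68, the value of Krt7, a gene near background, against −0.00 over all genes tested. Of the 7, 1 was called without the block, a share near the 12.6% of all genes, and 3 with it, where 27.7% of all genes were called. In E2 none was called without it and 2 with it, against 4.39% and 14.9% of all genes.

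**Figure D3:**
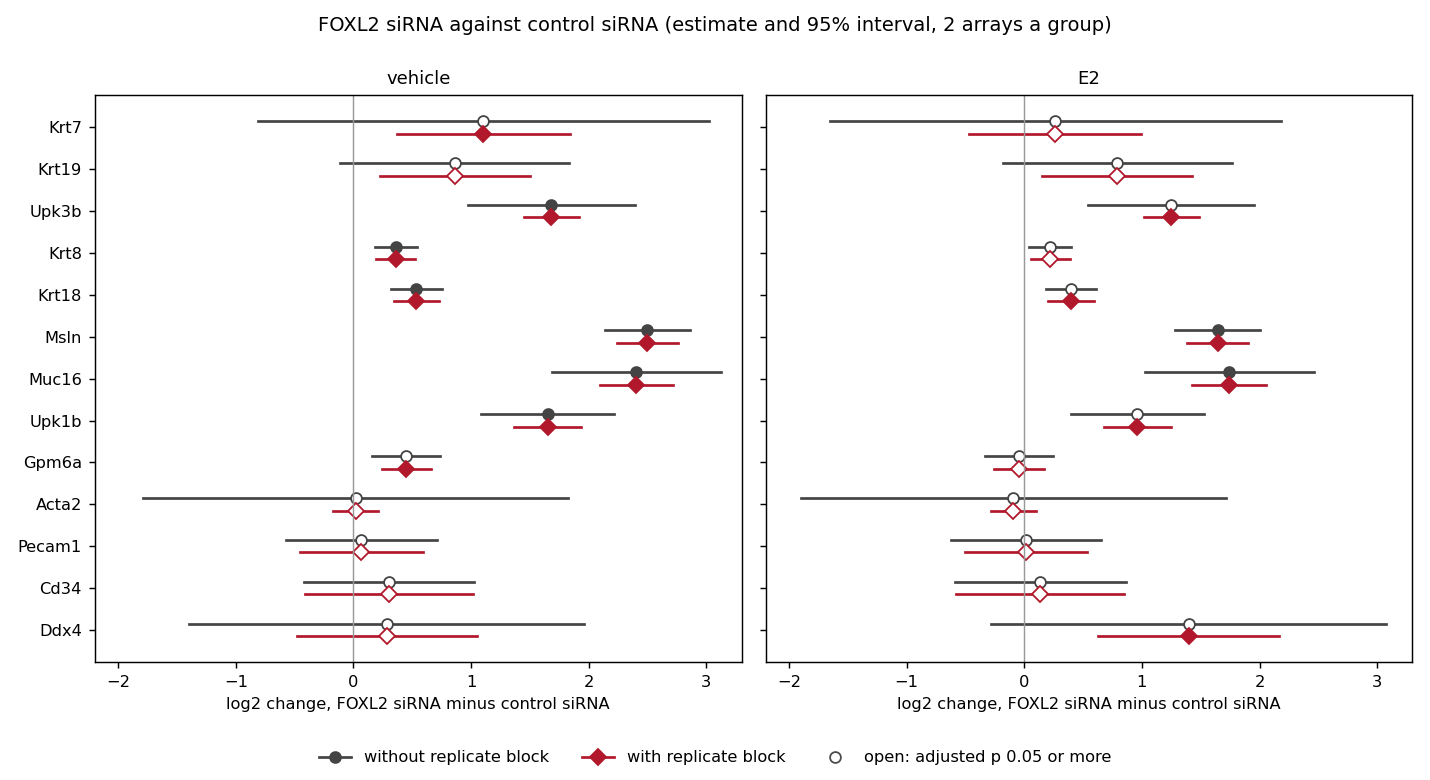
Log2 change between FOXL2 siRNA and control siRNA (horizontal axis) in vehicle and in E2, with 95% intervals, for the tested epithelial and mesothelial genes and the other 4 tested markers. Grey circles are without and red diamonds with the replicate block, and filled symbols passed an adjusted p of 0.05. Upk3b, Msln, Muc16 and Upk1b lie to the right in both panels, and the Acta2 interval narrows the most with the block.

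Several further epithelial and mesothelial genes were higher with FOXL2 siRNA, like Upk3b. Of the 9 tested genes of the list, Upk3b included, 6 were called higher with FOXL2 siRNA in vehicle and over both treatments, none was called lower, and 2 were called higher in E2. The list was chosen with earlier results of these data known, so these counts describe it and are no separate test of a pattern. Over all 15638 genes tested, 567, 1003 and 352 were called higher in vehicle, over both treatments and in E2. In either direction 6.57%, 12.6% and 4.39% were called in these 3 comparisons. With the block 8, 8 and 5 were called higher, where 18.7%, 27.7% and 14.9% of all genes were called. The median log2 change of the 9 was 0.83 over both treatments, against −0.00 over all genes.

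Msln, a surface protein of mesothelium, read 329.0 and 326.4 units with control siRNA in vehicle and 419.3 and 410.9 in E2, against 1716 and 1996 with FOXL2 siRNA in vehicle and 1107 and 1521 in E2. It rose 5.65-fold in vehicle (log2 change 2.50 ± 0.16 SE, limma adjusted p = 0.00052) and 3.13-fold in E2 (1.64 ± 0.16 SE, limma adjusted p = 0.00255). Muc16, the mucin that binds mesothelin, read between 127.5 and 257.0 units on the arrays labelled control siRNA and between 688.3 and 1107 on those labelled FOXL2 siRNA. It rose 5.30-fold in vehicle and 3.34-fold in E2 (limma adjusted p = 0.00543 and 0.0229). The Muc16 call in E2 was lost without any 1 of the 4 E2 arrays (highest limma adjusted p = 0.14), while its vehicle call and both Msln calls stood in all 8 such fits.

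Upk1b, a uroplakin partner, rose by a log2 change of 1.65 in vehicle (limma adjusted p = 0.00853), and Krt18 and Krt8, the keratin pair of simple epithelia, by 0.54 and 0.36 (limma adjusted p = 0.0164 and 0.034). On leaving out 1 array at a time, the vehicle call stood in 0 of 8 fits for Krt8, 5 of 8 for Krt18 and 7 of 8 for Upk1b. Gpm6a changed by 0.20 over both treatments (limma adjusted p = 0.197, or 0.0449 with the block). Epcam and Lrrn4, each well above background on 2 arrays, and Cdh1 and Lgr5, on none, were not tested. The summed signal of the 13 genes was 18458 to 20720 units on the control siRNA vehicle arrays and 20819 to 21235 on the control siRNA E2 arrays. It was 29738 to 30480 on the FOXL2 siRNA vehicle arrays and 27536 to 28999 on the FOXL2 siRNA E2 arrays. Krt8 and Krt18 made up 84.4 to 93.0% of it, and the other 11 genes summed to 1291 to 2074 units with control siRNA and 3733 to 4743 with FOXL2 siRNA. Of the 7 tested markers, only Upk3b had no overlap between arrays of the 2 siRNAs, as did Krt8, Krt18, Msln, Upk1b and Muc16 in the longer list, against 20.9% of all genes tested.

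The lists of the other cell types were read over both treatments in the fit without the block, where 12.6% of all genes were called. In the smooth muscle list 1 of 6 tested genes was called, Smtn, a cytoskeletal protein, whose mean change was 0.52 on the log2 scale (limma adjusted p = 0.0068). None of 3 pericyte, 5 endothelial, 10 immune or 4 oocyte genes tested was called. With the block, where 27.7% of all genes were called, 4 smooth muscle genes were called (Smtn, Des and Tagln higher, Cnn1 lower). So were Mcam of the pericyte, Kdr of the endothelial and Ddx4 of the oocyte list (all higher), and Csf1r (higher) and Coro1a (lower) of the immune list. Gdf9 changed by 0.03, Cd68 by −0.08 and Csf1r by 0.34 on the log2 scale over both treatments (limma adjusted p = 0.929, 0.795 and 0.0937). With the block, Csf1r was called (limma adjusted p = 0.0177). Cyp17a1, the steroid enzyme of theca cells, changed by 0.62 (limma adjusted p = 0.11, or 0.000155 with the block). Ogn, a stromal proteoglycan of the same list, was the 1 of its 4 tested genes called in vehicle, where it was lower with FOXL2 siRNA (log2 change −1.06, limma adjusted p = 0.00789). In vehicle 6.57% of all genes were called.

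Granulosa genes changed in both directions beside them. Over both treatments 4 of 12 tested granulosa genes were called lower and 1 higher, and 5 and 2 with the block, against 12.6% of all genes called without and 27.7% with it. Fst, the activin-binding follistatin, read 2379 to 2608 units with control siRNA and 479.5 to 760.7 with FOXL2 siRNA (log2 change −2.02, limma adjusted p = 0.000226). Serpine2, a protease inhibitor, and Hsd17b1, which makes estradiol from estrone, fell by 1.42 and 1.47 on the log2 scale (limma adjusted p = 0.000456 and 0.00222). These genes were named for having the smallest adjusted p of the list. Over the 12 tested genes the median log2 change was −0.07 and the highest 0.80. The summed signal of the list was 147647 to 154599 units with control siRNA and 161320 to 179646 with FOXL2 siRNA. The part that any change in the mix of cells had in the epithelial and mesothelial values was not tested.

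E2 was followed as the second factor. No marker was called for E2 in either siRNA background. With control siRNA, E2 called 3 of all genes (0.0192%), with FOXL2 siRNA 2 (0.0128%), and averaged over both siRNAs 0 (0%), where limma gave an unadjusted p under 0.05 for 360 genes. For Upk3b the log2 change with E2 was 0.34 with control siRNA (95% interval −0.37 to 1.04) and −0.10 with FOXL2 siRNA (−0.80 to 0.61). For Acta2 it was 0.05 and −0.06, with intervals that reached 1.86 upward and −1.87 downward.

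The block narrowed these intervals and called 1.16%, 0.614% and 0.0512% of genes for the same 3 comparisons, again with no marker among them. Its interval for Acta2 over both siRNAs ran from −0.14 to 0.13, and for Upk3b from −0.05 to 0.28. In the further epithelial list, Upk1b rose with E2 in the control siRNA cells under the block (log2 change 0.64, limma adjusted p = 0.0384), and Gpm6a by 0.45 (limma adjusted p = 0.0462). Without the block neither was called.

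The difference between the E2 effects of the 2 siRNAs was called for 0.243% of genes without and 2.12% with the block, and for none of the markers in either fit. For Upk3b this difference was −0.43 on the log2 scale (95% interval −1.43 to 0.57, or −0.76 to −0.10 with the block, limma adjusted p = 0.264 with it). For Msln it was −0.85 (limma adjusted p = 0.425 without and 0.0211 with the block), since E2 changed it by 0.34 with control siRNA and by −0.51 with FOXL2 siRNA.

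**Figure D4:**
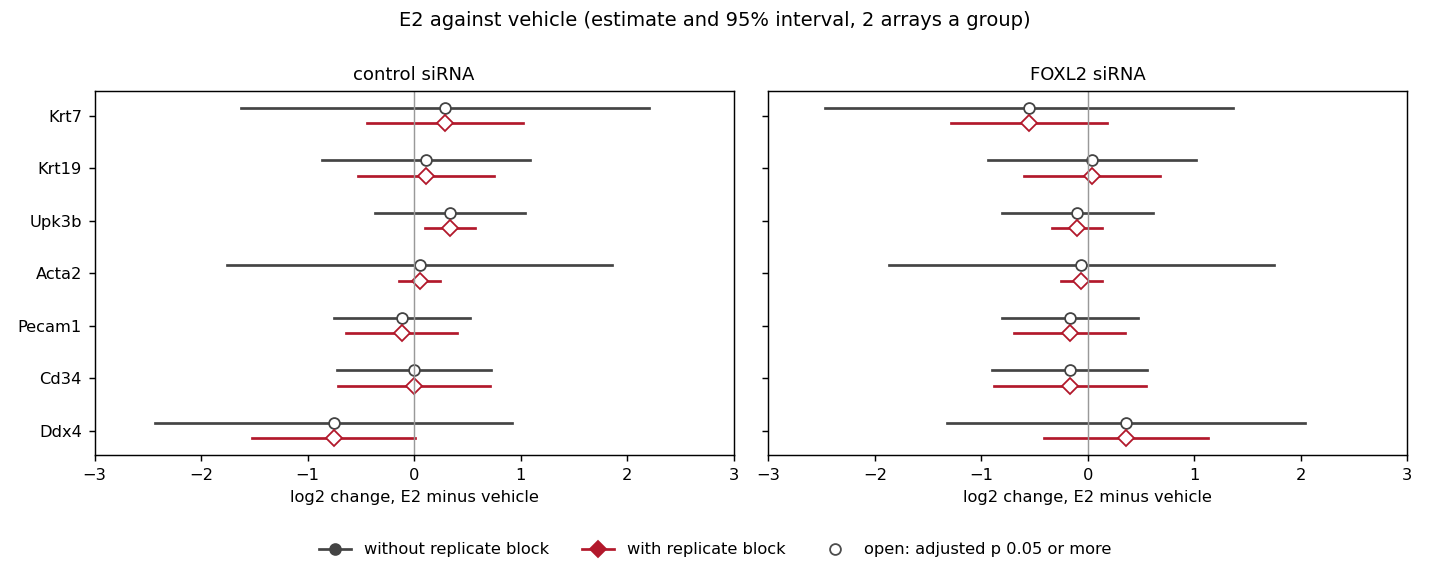
Log2 change between E2 and vehicle (horizontal axis) of the 7 tested markers with control siRNA and with FOXL2 siRNA, with 95% intervals. Grey circles are without and red diamonds with the replicate block, and all symbols are open, since no marker passed an adjusted p of 0.05.

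The replicate number separated Acta2, Krt7 and Ddx4 in every group. Same-numbered arrays deviated together from their group means, and the comparison of replicate 2 with replicate 1 was added after this was seen. Acta2 read 3753, 3797, 4047 and 3843 units on the 4 replicate 1 arrays (control siRNA vehicle, control siRNA E2, FOXL2 siRNA vehicle and FOXL2 siRNA E2). On the replicate 2 arrays it read 11267, 11953, 10705 and 10373 in the same order. It was therefore 2.64 to 3.15-fold higher on the replicate 2 array of each group, with no overlap. Its log2 difference was 1.52 ± 0.06 SE (limma adjusted p = 1.1e-07), in a comparison that called 15.5% of genes. It compares 1 pool number with another, over 4 wells each, so this p measures the spread between wells and not between pools, and the labels do not say whether the 4 groups of a number shared a pool. The 10 Acta2 spots of an array varied by a coefficient of variation of 2.13 to 4.86%.

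Of the other 5 tested smooth muscle genes, Tagln and Cnn1 differed in the same direction and Smtn, Actg2 and Des were not called. Tagln was 1.83 to 2.32-fold higher on the replicate 2 array of each group (log2 difference 1.03, limma adjusted p = 1.66e-06) and Cnn1 1.60 to 2.23-fold (0.91, limma adjusted p = 4.72e-05). Notch3, a receptor of mural cells picked here after its values were seen, differed by 0.68 (limma adjusted p = 8.07e-05). The differences of Smtn, Actg2 and Des were 0.12, 0.18 and −0.80, and those of the other tested pericyte genes, Mcam and Cspg4, 0.01 and −0.39, none past the threshold. The summed signal of the 10 smooth muscle genes was 14706 to 17996 units on the replicate 1 arrays and 33232 to 36016 on the replicate 2 arrays. Most of it came from Acta2 and Tagln, at 3753 to 11953 and 9390 to 22839 units over the 8 arrays, while Smtn reached 1887. The sum therefore mainly repeats those 2 genes. Myh11 was not well above background in either replicate, and Rgs5, a pericyte marker, was not so on any array.

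Krt7 and Ddx4 also split by replicate, in opposite directions. Krt7 was brighter on the replicate 1 array of each group, 2.48-fold in FOXL2 siRNA vehicle, where both arrays were well above background. In the other 3 groups the replicate 2 array was not, and against the dimmest well-above-background signal of that array, or its own signal where higher, Krt7 was at least 1.95-fold higher in control siRNA vehicle, at least 3.02-fold in control siRNA E2 and at least 2.41-fold in FOXL2 siRNA E2. The fit on the measured signals gave a log2 difference of −1.50 ± 0.24 SE (limma adjusted p = 0.00123), whose size is uncertain for that reason. Ddx4 was 1.68 to 2.05-fold brighter on the replicate 2 array of 3 groups and at least 2.85-fold in control siRNA E2, where the replicate 1 array was not well above background. The fit on its measured signals gave a log2 difference of 1.21 ± 0.25 SE (limma adjusted p = 0.00659). Upk3b was 1.37 to 1.62-fold brighter on replicate 1 (log2 difference −0.56 ± 0.08 SE, limma adjusted p = 0.000451), a smaller gap than its gap between siRNAs of 1.47.

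Krt19 differed by 0.60, Pecam1 by −0.23 and Cd34 by 0.19, none past the threshold (limma adjusted p = 0.0719, 0.394 and 0.639). Arrays of the 2 replicate numbers did not overlap for Acta2, Krt7 and Ddx4 among the 7 tested markers, against 11.1% of all genes tested. The 2 spots of Pecam1 on an array differed by up to 3.13-fold, which is wider than its range over arrays of 37.8 to 61.5 units. Decorin (Dcn), a stromal proteoglycan picked after its values were seen, was lower on replicate 2 (log2 difference −0.88, limma adjusted p = 1.57e-05), as was Cyp17a1 (−0.54, limma adjusted p = 0.0011). Each replicate was a pool of mice, numbered as biological in the labels, and the part that cell content had in these gaps was not tested.

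**Figure D5:**
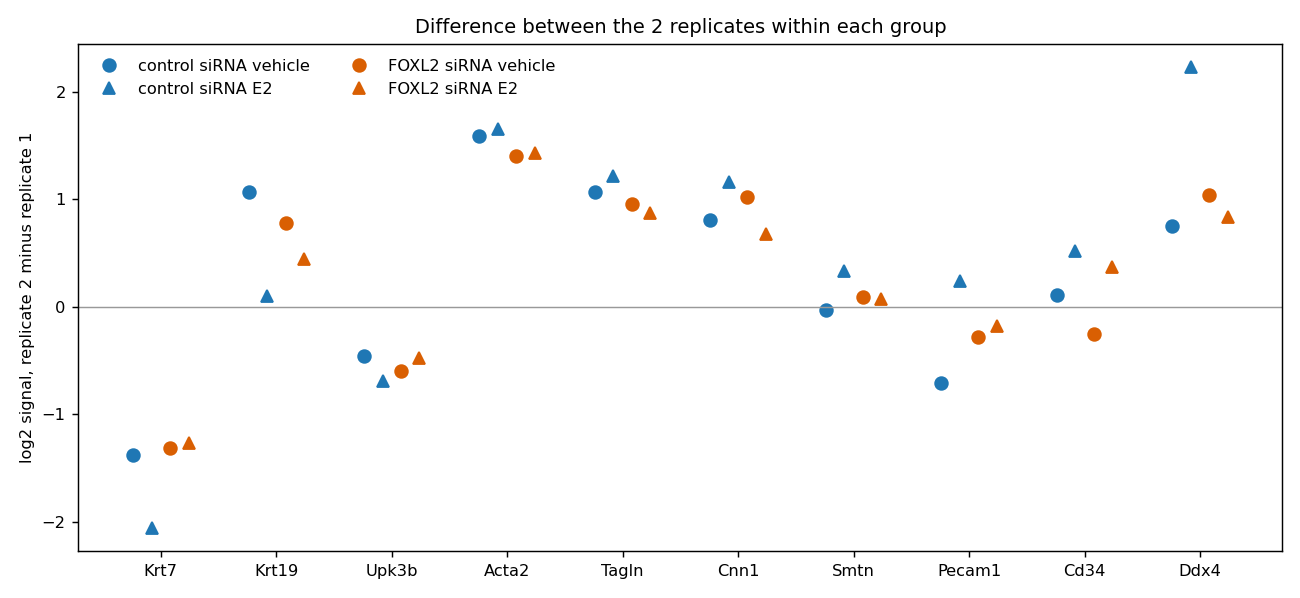
Log2 signal of replicate 2 minus replicate 1 within each of the 4 groups, for the 7 tested markers and the smooth muscle genes Tagln, Cnn1 and Smtn (vertical axis). Blue is control siRNA, orange FOXL2 siRNA, circles vehicle and triangles E2. All 4 points lie at or above 1.40 for Acta2 and at or below −1.27 for Krt7, and those of Pecam1 and Cd34 lie on both sides of 0.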

How the data were processed

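RNA of 8 samples was measured, in 1 colour (Cy3), on 8 Agilent arrays on 1 slide. Per the file headers, the deposited intensity values are spot signals that the authors' software had background-corrected, with a flag for spots well above background. The deposited value table is on a log2 scale, for which the authors used 75th-percentile scaling and the mean over probes. After an offset per array, 98.8% of its values lay within 0.001 of those computed here.

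Control spots and outlier spots were left out. Processed intensity was averaged over the spots of a probe, divided by that array’s 75th percentile (275.1 to 367.5 units, multiplied by the reference 320.0) and then averaged on the linear scale over the probes of an Entrez gene. A probe counted as well above background where 50% or more of its spots did, and a gene where any of its probes did. Genes with a median of at least 10 units were kept (15638 of 24235). Log2 values were tested with limma 3.58.1 in R 4.3.3 (4 group means, intensity trend, two-sided, Benjamini-Hochberg threshold 0.05). The fit without the block was tested on simulated data that held no replicate effect, so that test does not bear on the blocked fit.

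The replicate numbers were taken to pair the arrays, because deviations from the group means of same-numbered arrays correlated over genes at 0.327 to 0.445 in all 6 pairs of groups. The number was then used as a block in a second fit. Alternatives were normexp on the median spot signal (no mean signal column was used), quantile scaling, other filters, the brightest probe, no trend, fewer groups, the value table and leaving out each array. The markers and lists were chosen with earlier results of these data known. Named genes were the 10 markers, fixed defining markers of each cell type, and up to 3 further genes of each list called over both treatments and 2 called elsewhere. Other list genes named for their detection were chosen after their values were seen.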

Additional observations from a re-analysis of the deposited data

Results flagged for a closer look

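Ogn, a stromal proteoglycan of the theca and stroma list, was the named gene whose E2 effect was called different between siRNAs without the replicate block. With the block 2 of the 4 tested genes of its list were called for this difference, and so was Msln. With control siRNA it read 370.5 and 308.1 units in vehicle and 178.9 and 181.1 in E2, whereas with FOXL2 siRNA it read 169.4 and 154.1 in vehicle and 309.7 and 249.9 in E2. The difference of the E2 effects was 1.69 on the log2 scale (limma adjusted p = 0.0388, or 0.000222 with the replicate block). The unblocked call was lost under 11 of the alternatives.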

How the results depend on the processing

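Over 182 results for named genes and 17 other settings, 2934 of 3016 values kept their side of the threshold, 56 lost a call, 26 gained one and none reversed. Among 2542 values called in neither fit, 230 turned sign. The number of markers called for FOXL2 siRNA in vehicle was 1, and became 0 without the intensity trend (Upk3b adjusted p = 0.0528), 2 with the replicate block and 0 to 1 on leaving out single arrays. In E2 it was 0, and 2 with the replicate block. Over both treatments it was 1, and 3 with the replicate block and 2 with normexp. For E2 no marker was called under any setting. In the replicate comparison 4 markers were called, and 3 without the trend, where Ddx4 was lost (limma adjusted p = 0.0577).

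Over all genes, FOXL2 siRNA called 1027 in vehicle, 686 in E2 and 1971 over both treatments. The replicate block gave 2932, 2331 and 4326, no trend 633, 379 and 1520, and single arrays left out at lowest 309, 131 and 1181. Fits of the groups compared alone called 585 in vehicle. For E2 the block gave 182, 96 and 8 in place of 3, 2 and 0, and for the difference of the E2 effects 332 in place of 38. Other settings moved the E2 counts of 3 and 2 to between 0 and 7, and that of 38 to 9 without the filter and 15 without the trend, and to between 4 and 10 on leaving out single arrays. Replicate 2 against 1 called 2431 genes, 1179 without the trend and 1586 to 1965 on leaving out single arrays. With 2 arrays a group, and Krt7, Krt19, Cd34 and Ddx4 near background, the number of arrays and the signal over background limit these values.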
